A study of Mus musculus with 18 samples.

Results

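The sphingosine-1-phosphate (S1P) pathway was followed through 6 genes of NIH3T3 cells: the kinases Sphk1 and Sphk2 that make S1P, the lyase Sgpl1 that destroys it, and the receptors S1pr1, S1pr2 and S1pr3. They were taken by symbol from a table of 21937 genes, of which the 12393 averaging 10 or more normalized reads entered the tests. All 6 members passed that filter. The set was chosen by pathway and by the measured levels of Sphk1, whose strong fall after the medium change was already known, so all values of Sphk1 are given as a description, with no test.

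S1P is a signalling lipid made from sphingosine, the backbone that ceramidases release from ceramide. The kinases add the phosphate, lipid phosphatases take it off again, and the lyase cleaves S1P irreversibly in the endoplasmic reticulum. Outside the cell S1P acts through G protein-coupled receptors that steer migration, contraction and survival, and it is carried in serum, to which cultured fibroblasts such as NIH3T3 respond.

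NIH3T3 is an established line of mouse embryo fibroblasts. All cells had received 100 nM dexamethasone, a synthetic glucocorticoid that aligns the circadian clocks of a culture, for 2 h. Its replacement by normal medium marked 0 h, and RNA was sequenced then and every 4 h up to 32 h; each of the 9 times has 2 libraries (replicate 1 and replicate 2). No library of cells without dexamethasone was analysed here, so every change below is a change relative to another time of one culture history. The labels do not say that the replicates were separate cultures, and the p-values reflect nothing beyond the scatter among these libraries, which may be technical.

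Library depth was 25.4 to 38.9 M reads assigned to genes. Levels are normalized reads, counts divided by 1 factor per library. Fold changes and log2 changes come from fits to log2(normalized reads + 1), with SE, and a gene passed at a limma adjusted p under 0.05. All 8 fibroblast markers were measured in each library (Col1a1, Vim and Thy1 among them), with a summed level of 8.25e+05 to 1.19e+06 normalized reads. The 7 endothelial markers summed to 37.4 to 103, with Kdr at 0, and the 7 leukocyte markers to 20.6 to 49.8, with Cd3e at 0.

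Promoter windows of some members are shown as sequence, and a link between them and the courses of the members was not tested. Each window holds the 250 bases before a RefSeq transcript start on GRCm38.p6, a later build than the mm9 of the expression table. RefSeq gave 5 windows for Sphk1, 2 for Sphk2, and 1 each for S1pr2, S1pr3 and Sgpl1. Windows 2 and 4 of Sphk1 start from separate transcript starts, and capitals mark the AP-1 letters TGANTCA and the E-box letters CACGTG. In window 2 of Sphk2 capitals mark the SP1 letters GGGCGG, and in the S1pr2 window the CRE letters TGACGTCA.
Sphk1 window 2, chr11:116531587-116531836, plus strand: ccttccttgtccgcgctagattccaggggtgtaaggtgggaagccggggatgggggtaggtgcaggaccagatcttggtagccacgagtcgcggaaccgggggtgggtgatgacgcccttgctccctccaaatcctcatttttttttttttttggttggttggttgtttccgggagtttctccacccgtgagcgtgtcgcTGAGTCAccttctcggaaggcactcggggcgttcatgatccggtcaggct
Sphk1 window 4, chr11:116532194-116532443, plus strand: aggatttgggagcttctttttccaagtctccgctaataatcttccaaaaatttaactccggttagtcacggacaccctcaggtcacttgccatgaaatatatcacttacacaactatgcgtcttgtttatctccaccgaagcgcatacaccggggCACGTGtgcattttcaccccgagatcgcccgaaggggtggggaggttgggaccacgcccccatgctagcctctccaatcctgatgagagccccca
Sphk2 window 2, chr7:45718003-45718252, minus strand: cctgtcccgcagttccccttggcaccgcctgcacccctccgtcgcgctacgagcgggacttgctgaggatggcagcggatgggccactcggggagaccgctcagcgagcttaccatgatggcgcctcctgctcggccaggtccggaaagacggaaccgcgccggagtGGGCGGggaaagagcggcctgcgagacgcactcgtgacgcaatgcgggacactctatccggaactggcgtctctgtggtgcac
S1pr2 window, chr9:20976794-20977043, minus strand: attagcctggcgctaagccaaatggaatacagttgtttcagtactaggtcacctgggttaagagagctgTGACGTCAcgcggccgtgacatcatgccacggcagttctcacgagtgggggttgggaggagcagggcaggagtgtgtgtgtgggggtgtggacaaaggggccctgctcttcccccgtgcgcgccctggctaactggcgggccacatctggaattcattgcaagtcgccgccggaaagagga

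Read on both strands, TGANTCA was held by 6.75% of all 32851 mouse windows, CACGTG by 6.02%, TGACGTCA by 1.55% and GGGCGG by 32.7%. Windows 2 and 3 of Sphk1 overlap and share their AP-1 letters, as windows 4 and 5 share their E-box letters, and window 1 held TATAAA, found in 12.4% of windows. S1pr3 and Sgpl1 held GGGCGG without the AP-1, E-box or CRE letters. None of these windows of the members held the glucocorticoid receptor element, AGAACA followed after 3 bases by TGTTCT (0.00913% of windows), or the EGR letters GCGNGGGCG (4.7%). A match is a run of letters and was not tested as a binding site, and a missing match says only that these letters are not in that window. The shares are per window, so a gene with more windows, such as Sphk1, has more chances of a match.

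Sphk1, which phosphorylates sphingosine mainly in the cytosol and at the plasma membrane, was the member that moved most. It fell steeply after the medium change, and its level at 32 h was 5.52% of that at 0 h. In replicate 1 Sphk1 had 5188, 1360, 699, 399, 342, 317, 306, 276 and 281 normalized reads at 0, 4, 8, 12, 16, 20, 24, 28 and 32 h. In replicate 2 it had 4406, 1519, 583, 411, 329, 299, 288, 285 and 249 normalized reads at the same times. Up to 20 h the libraries of each time lay below those of the time before, while those of 24 h overlapped those of 20 h, and those of 32 h overlapped those of 28 h. In bulk RNA, fewer cells with the transcript and less transcript per cell cannot be told apart.

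Most of the decline of Sphk1 came early. By 4 h it had covered 74.1% of the whole distance between the 0 h and 32 h means, by 8 h 91.7% and by 12 h 96.9%. The level at 4 h was 0.262 times that at 0 h in replicate 1 and 0.345 times in replicate 2, which corresponds to a halving every 2.07 h and 2.60 h if the decline between the harvests had been exponential. Later intervals took off smaller shares: the 12 h level was 0.570 and 0.706 times that at 8 h, and the 24 h level was 0.965 and 0.964 times that at 20 h. The fitted log2 change from 0 h was -1.73 at 4 h, -2.90 by 8 h, -3.56 by 12 h and -4.17 in the last libraries. Ordered by the size of the fall among the 12393 tested genes, Sphk1 took place 21 at 4 h, place 7 by 8 h, place 3 by 12 h and place 2 from 16 h to 32 h.

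**Figure D1:**
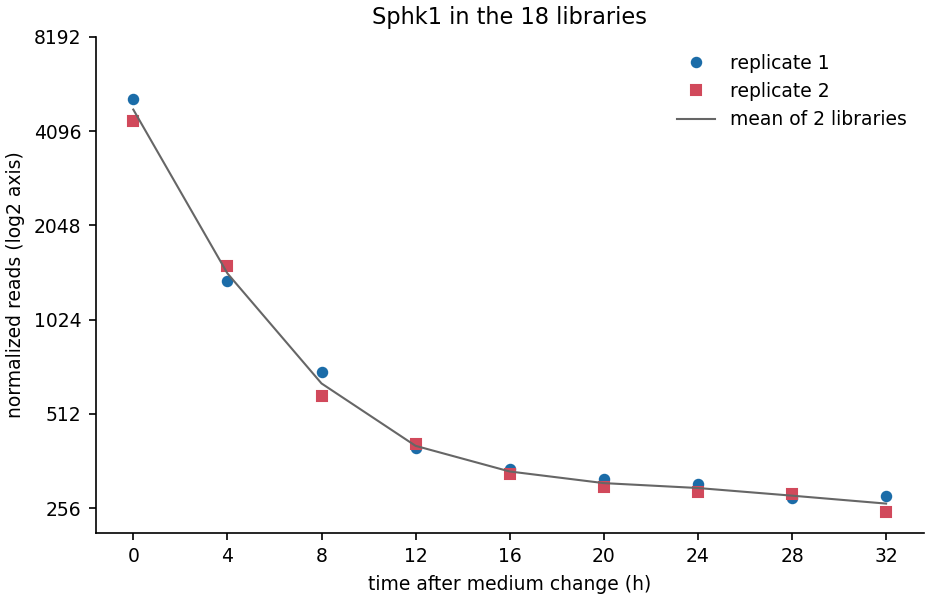
Normalized reads of Sphk1 (log2 axis) against hours after the medium change, with a mark for each of the 18 libraries. The 32 h libraries stand at 281 and 249 normalized reads, against 5188 and 4406 for those of 0 h.

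The later comparisons belong to the same fall, so they too are given for Sphk1 as a description. One day apart, Sphk1 had 276 and 285 normalized reads at 28 h, against 1360 and 1519 at 4 h, a fitted log2 change of -2.35. It had 281 and 249 normalized reads at 32 h, against 699 and 583 at 8 h, a log2 change of -1.27. In both comparisons every library of the later time lay below both libraries of the earlier one. From 8 h to 32 h the level of Sphk1 covered a 2.41-fold range.

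The summed level of the 6 epithelial markers was lower late in the course as well. It was 245 and 215 normalized reads at 32 h, against 1196 and 901 at 0 h. Most of it was the keratin Krt8, and Epcam and Cdh1 never exceeded 3.86 and 3.58. Krt8 and Krt18 were lower at 32 h than at 0 h (log2 change -2.63 and -0.94, limma adjusted p = 5.05e-08 and 0.00497). Krt14 did not pass at 32 h (adjusted p = 0.275), and Krt18 was higher at 4 h than at 0 h (log2 change 0.89, adjusted p = 0.0155). At 4 h, when Sphk1 stood at 30.0% of its 0 h level, the epithelial sum was 1054 and 1007. The part of these markers in the course of Sphk1 was not tested.

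Sphk2, the kinase found largely in the nucleus and on internal membranes, rose slightly at 4 h and was otherwise near its starting level. It had 754, 1025, 835, 778, 755, 798, 820, 851 and 811 normalized reads in replicate 1 at the 9 times in order. In replicate 2 it had 772, 870, 821, 742, 760, 865, 790, 865 and 820. Both 4 h libraries exceeded every other library, and the libraries of 12 h and 16 h overlapped those of 0 h. Sphk2 rose 1.24-fold at 4 h over 0 h (log2 change 0.31 ± 0.075, limma adjusted p = 0.0111). Leaving out the higher 4 h library (replicate 1) gave an adjusted p of 0.131, and leaving out 0 h replicate 2 gave 0.0550. At the other times its log2 change from 0 h was between -0.01 and 0.17 and did not pass, though with equal library totals it was 0.31 at 32 h (adjusted p = 0.00408). Over the 9 times together Sphk2 passed narrowly (F test, adjusted p = 0.0353), but 12 of 28 alternatives (another scaling, filter or tool, or 1 library left out) ended that call, with adjusted p-values of up to 0.113.

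The balance of the 2 kinase transcripts turned over in the first 12 h. Reads were divided by the exon length of each gene in kb (GENCODE M21), since levels of different genes compare only per length. Per kb, the ratio of Sphk1 to Sphk2 was 7.36 and 6.11 at 0 h, 1.42 and 1.87 after 4 h, 0.895 and 0.760 after 8 h, and 0.371 and 0.325 after 32 h. With the length of the longest coding transcript in place of all exons, Sphk1 was still slightly above Sphk2 at 8 h (mean 241 against 233 normalized reads per kb) and below it at 12 h (152 against 214). Across the 18 libraries, which share the time course, the levels of the 2 kinases were nearly uncorrelated (Pearson r = 0.023 on the log2 scale).

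Sgpl1, the S1P lyase, varied little. It had 3330, 3188, 3424, 3478, 3118, 2973, 3226, 3064 and 3138 normalized reads in replicate 1 and 3533, 2854, 3191, 3108, 3064, 2880, 2904, 2999 and 2910 in replicate 2, at 0 h to 32 h in order. Every library from 16 h onward lay below both 0 h libraries. At 20 h it was 1.17-fold lower than at 0 h (log2 change -0.23 ± 0.075, limma adjusted p = 0.0257). That call was lost with equal library totals (log2 change -0.03, adjusted p = 0.772), with quantile normalization (0.249) and without 20 h replicate 1 (0.0618), 20 h replicate 2 (0.124) or 0 h replicate 2 (0.154).

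At the ends of the course Sgpl1 was slightly lower without passing. Its log2 change was -0.19 at 4 h against 0 h (95% interval -0.35 to -0.02, adjusted p = 0.0932) and -0.18 at 32 h against 0 h (-0.34 to -0.02, adjusted p = 0.0655). With the replicate number as a block, which removes the constant difference between the replicates, both passed, with adjusted p-values of 0.0130 and 0.00939, as did the F test over the 9 times (0.0127, against 0.161 without the block). Equal library totals gave a change of 0.03 at 32 h, so its direction there depended on the scaling.

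S1pr1, the receptor that couples to inhibitory G proteins and is best known from endothelial cells and lymphocytes, was the receptor that rose most. Its course had 2 high stretches, at 4 h and from 24 h on. At the 9 times in order, S1pr1 had 1142, 1783, 1297, 1351, 1327, 1354, 1598, 1567 and 1722 normalized reads in replicate 1. In replicate 2 it had 1086, 2113, 1658, 1419, 1682, 1689, 1831, 2000 and 2084. All 16 later libraries exceeded both 0 h libraries. Among the later times the libraries of 8 h to 20 h overlapped, and replicate 2 was above replicate 1 at 8 of 9 times, by 0.23 log2 on average. Pecam1 and Cdh5, endothelial genes, had at most 30.1 and 69.0 normalized reads in any library.

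S1pr1 rose 1.74-fold at 4 h over 0 h (log2 change 0.80 ± 0.159, limma adjusted p = 0.00311) and 1.70-fold at 32 h over 0 h (0.77 ± 0.159, adjusted p = 0.00151). Both held in all 28 alternatives. Between these times the differences from 0 h were smaller. The log2 change was 0.40 at 8 h (adjusted p = 0.0685), 0.31 at 12 h (0.142), 0.42 at 16 h (0.0507) and 0.44 at 20 h (0.0407), in comparisons that 36.2% of all tested genes passed at 12 h and 36.5% at 16 h. With the replicate block all 4 passed, and for the first 3, which had missed the threshold without it, the adjusted p-values were 0.000480, 0.00334 and 0.000218. At 20 h, 5 alternatives ended the call, with adjusted p-values of up to 0.298. At 24 h the rise was 0.62 (adjusted p = 0.00711; 0.0681 without 24 h replicate 2) and at 28 h 0.67 (0.00395; 0.0609 without 28 h replicate 2).

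A day apart, S1pr1 differed less. It had 1567 and 2000 normalized reads at 28 h, against 1783 and 2113 at 4 h, and the libraries overlapped (log2 change -0.13, 95% interval -0.47 to 0.21, adjusted p = 0.534). At 32 h it had 1722 and 2084, against 1297 and 1658 at 8 h, with both 32 h libraries above the 8 h ones (log2 change 0.37, adjusted p = 0.0995; 0.00106 with the replicate block). Among 8 h to 32 h its F test did not pass (adjusted p = 0.266) but did with the block (0.000793). Over all 9 times S1pr1 passed (adjusted p = 0.0114; 0.0564 without 0 h replicate 2).

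S1pr2, the receptor best known for restraining migration, was raised at 4 h alone. It had 865 and 839 normalized reads at 4 h, against 707 and 682 at 0 h, a rise of 1.23-fold (log2 change 0.29 ± 0.083, limma adjusted p = 0.0227). The 4 h libraries were the highest of all 18, and those of the other later times lay between 683 and 822 with overlap from time to time. Without 4 h replicate 1 the adjusted p was 0.114, without 4 h replicate 2 0.0574 and without 0 h replicate 2 0.148. At 32 h it had 735 and 697 normalized reads (log2 change 0.04, 95% interval -0.14 to 0.22, adjusted p = 0.712), and with equal totals a change of 0.26 (adjusted p = 0.0191). The F test over the 9 times did not pass (adjusted p = 0.138; 0.0376 with equal totals).

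S1pr3, which couples to several classes of G proteins and is typical of fibroblasts and smooth muscle, was the most abundant receptor transcript. It had 4153, 4280, 4131, 4728, 4166, 3953, 3881, 3705 and 3786 normalized reads in replicate 1 and 4969, 5079, 4852, 4810, 4724, 4266, 3880, 4178 and 4334 in replicate 2. Replicate 2 was higher at 8 of 9 times, by 0.16 log2 on average, and in each replicate every level from 20 h on was below every level up to 16 h. The log2 change from 0 h was 0.04 after 4 h (95% interval -0.20 to 0.27, adjusted p = 0.842), -0.23 at 24 h (-0.46 to 0.01, adjusted p = 0.124) and -0.17 at 32 h (-0.40 to 0.07, adjusted p = 0.253).

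With the replicate block S1pr3 passed at 24 h (adjusted p = 0.00297) and 32 h (0.0225) against 0 h, and also for 28 h against 4 h (log2 change -0.24; 0.00147, against 0.0901 without the block). Its F test passed with the block over the 9 times (0.000455, against 0.177) and among 8 h to 32 h (0.00178, against 0.306). The change at 24 h also passed without 0 h replicate 1 (0.0489), and that of 28 h against 4 h without 4 h replicate 1 (0.0400). Equal totals gave S1pr3 a change of 0.05 at 32 h.

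**Figure D2:**
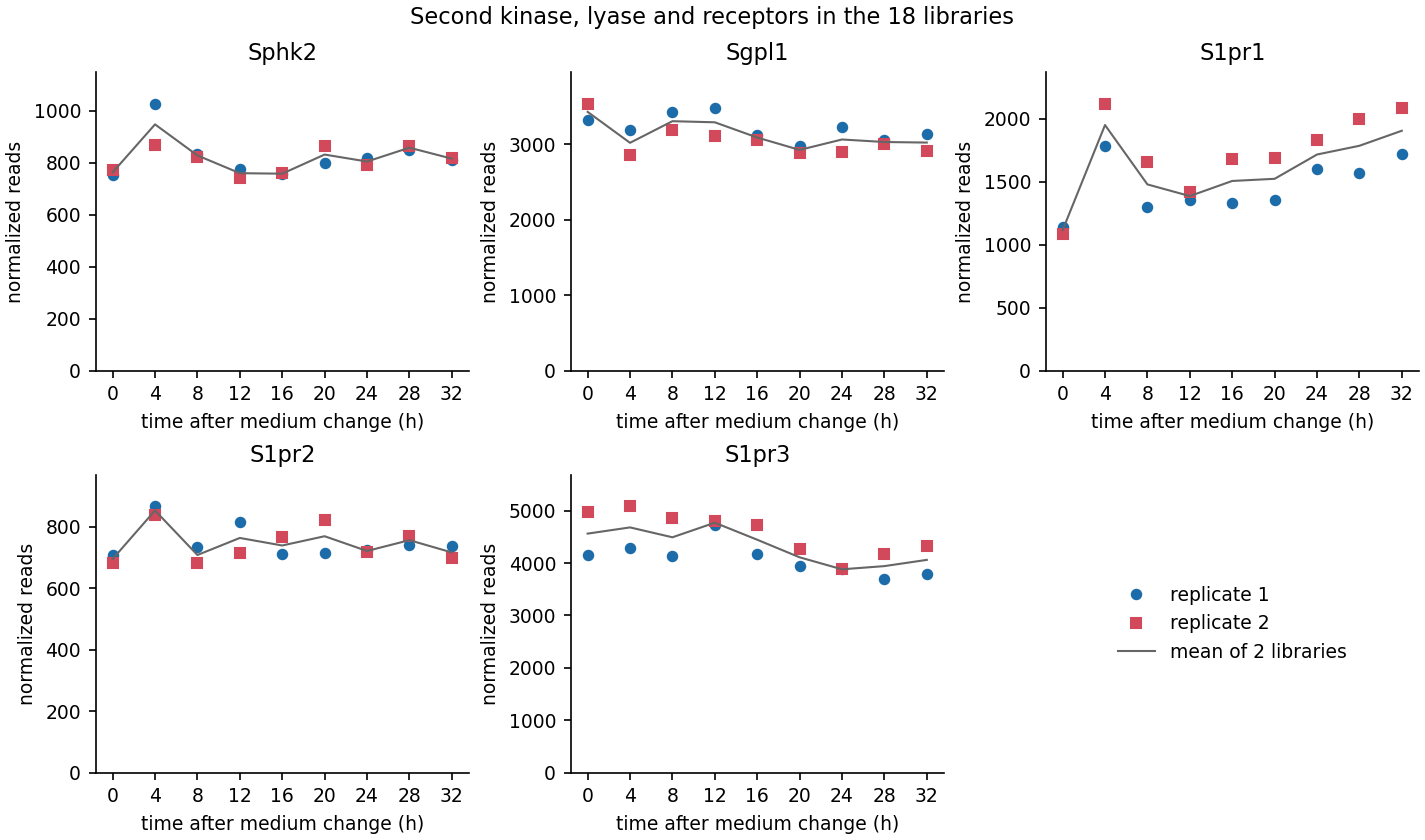
Normalized reads of Sphk2, Sgpl1, S1pr1, S1pr2 and S1pr3 against hours after the medium change, with replicate 1 as circles, replicate 2 as squares and the mean as a line. All 16 later libraries of S1pr1 lie above its 0 h libraries of 1142 and 1086, and the 4 h libraries of Sphk2 and S1pr2 are the highest of their panels.

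Of the 5 members other than Sphk1, 3 were higher at 4 h than at 0 h (Sphk2, S1pr1 and S1pr2), where 11.0% of all tested genes were called higher and 21.5% in either direction. At 8 h 0 of the 5 passed, against 34.4% of all genes. At an unadjusted p under 0.05 the count at 8 h was 1 (S1pr1), by edgeR 0, by DESeq2 1 and with the replicate block 1. Over all 12393 genes, 4167 passed at 8 h by edgeR, 3911 by DESeq2 and 5976 with the block. At 20 h, 2 of 5 passed (S1pr1 higher, Sgpl1 lower), against 38.6% of all genes. S1pr1 alone passed at 24 h (37.2% of all genes), 28 h (39.8%) and 32 h (40.8%). Among the 9 times 2 of 5 passed (Sphk2 and S1pr1), against 52.0%. For 28 h against 4 h, 32 h against 8 h and the F test among 8 h to 32 h the count was 0 of 5, against 41.4%, 27.6% and 19.2% of all genes. At an unadjusted p under 0.05 these counts were 1 (S1pr3), 1 (S1pr1) and 0, and by edgeR and DESeq2 they were 0. Leaving out 4 h replicate 1 or 4 h replicate 2 gave 1 for 28 h against 4 h (S1pr3 or Sphk2), and leaving out 8 h replicate 2 gave 1 for 32 h against 8 h (S1pr1). With only 5 genes, these counts describe the members and were not tested against the background.

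**Figure D3:**
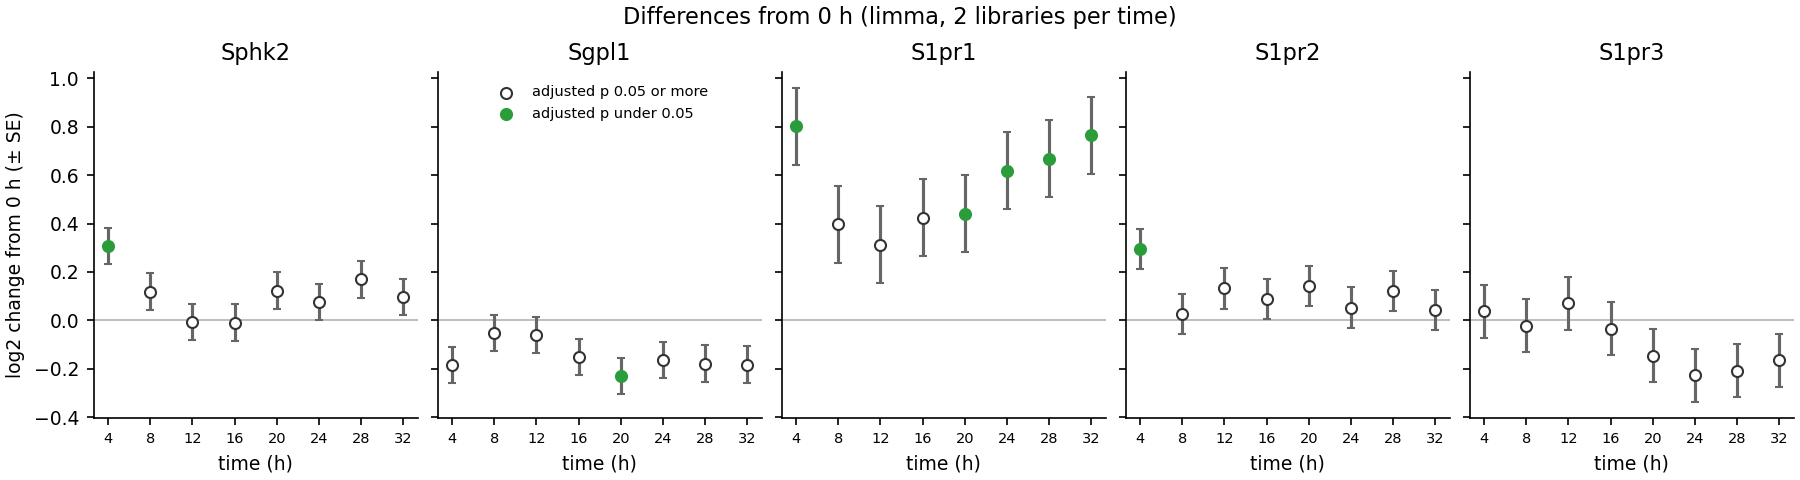
Log2 change from 0 h, with SE, of Sphk2, Sgpl1, S1pr1, S1pr2 and S1pr3 at the 8 later times, on the log2(normalized reads + 1) scale. Filled marks stand for an adjusted p under 0.05. Sphk1 has no test and is not shown. S1pr1 lies between 0.31 and 0.80, and the other members shown stay between -0.23 and 0.31.

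Sphk1 was not tested for a rhythm. Of the other 5 members, 0 passed a test of a rhythm with a period of 24 h, where 46 of 12393 genes (0.371%) did. The smallest adjusted p was that of Sphk2 (0.300), and none of the 5 had an unadjusted p under 0.05. The count was also 0 by edgeR and DESeq2, with periods of 22 h and 26 h and with a linear term in time. The number of all genes called rhythmic depended on the setting. Of 12393 genes it was 39 by edgeR, 533 by DESeq2, 15 at 22 h, 344 at 26 h and 2108 with the linear term.

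Per kb, the members changed their order early in the course. At 0 h Sphk1 was highest with 1335 and 1134 normalized reads per kb, followed by S1pr3 with a mean of 1022, Sgpl1 830, S1pr1 366, Sphk2 183 and S1pr2 109. No neighbours in this order had overlapping libraries at 0 h, but those of Sphk1 and S1pr3 (931 and 1113) lay close together. The gap between S1pr3 and Sgpl1 (806 and 855) was smaller than that between the S1pr3 libraries. At 4 h Sphk1, with 370 normalized reads per kb, stood between S1pr1 (640) and Sphk2 (228). At 32 h S1pr3 was highest with 910, followed by Sgpl1 732, S1pr1 625, Sphk2 196, S1pr2 112 and Sphk1 68.2. The orders at 0 h, 4 h and 32 h were the same with the longest coding transcript as the length.

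The receptor mix shifted toward S1pr1 at 4 h and again late in the course. Of the normalized reads per kb of the 3 receptors, S1pr1 made up 26.5% and 22.6% at 0 h, 34.9% and 35.3% after 4 h, and 37.0% and 38.8% after 32 h. S1pr3 held 65.7% and 70.6% at 0 h, 57.1% and 58.0% after 4 h, and 55.5% and 55.0% after 32 h. The share of S1pr2 was between 6.14% and 8.06% throughout. The libraries of 4 h and of 32 h did not overlap those of 0 h for S1pr1 or S1pr3, and at 12 h the S1pr1 share was 27.2% and 28.1%. The shares were not tested. S1pr4 and S1pr5, the other receptors of S1P, were at 1.37 to 11.7 and at 0 to 1.94 normalized reads and were not tested.

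**Figure D4:**
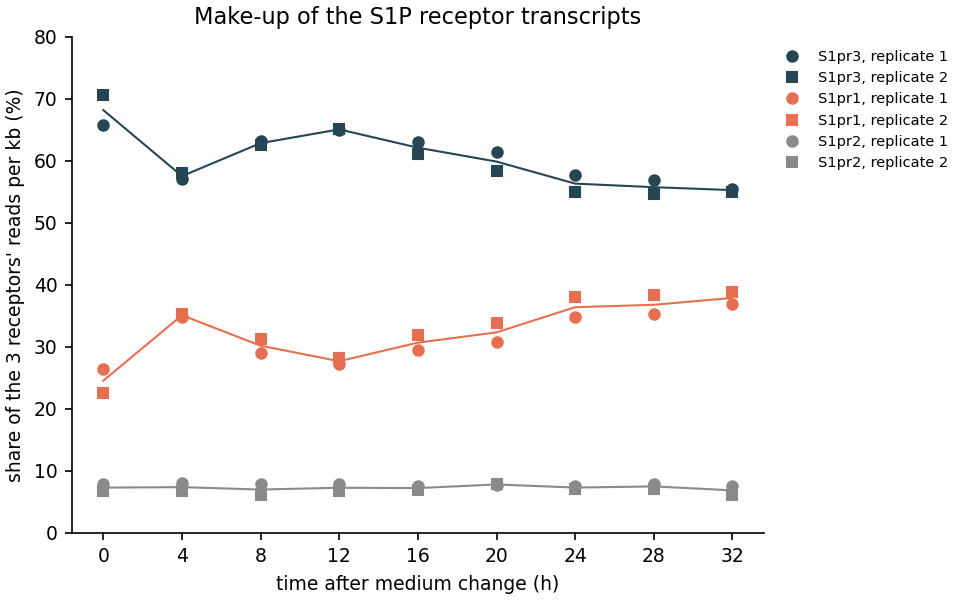
Share (%) of S1pr1, S1pr2 and S1pr3 in the summed normalized reads per kb of the 3 receptors, against hours after the medium change, for both replicates. The S1pr1 share stands at 37.0% to 38.8% at 32 h, against 22.6% to 26.5% at 0 h.

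The wider sphingolipid pathway, 58 genes in all, had 45 tested genes. Against 0 h, 4 rose and 5 fell at 4 h, 10 rose and 6 fell at 8 h, and 9 rose and 11 fell at 32 h. These are 9, 16 and 20 of the 45, beside 21.5%, 34.4% and 40.8% of all tested genes, so the shares were near the background. The medians over the 45 genes were 0.01, 0.04 and -0.01 log2 at these times, against medians of -0.00, -0.00 and 0.01 over all tested genes. Equal library totals put the median of all genes at 0.03, 0.14 and 0.22 log2. With them the split became 16 higher and 2 lower at 8 h and 21 higher and 6 lower at 32 h. Of all 12398 genes tested that way, 5158 passed at 8 h and 6861 at 32 h. Among those, 77.7% and 81.0% were higher, so the tilt toward higher levels was shared by all tested genes. At 4 h, 2 rose and 1 fell without 0 h replicate 2, and 3 rose and 1 fell without 4 h replicate 1. At 8 h, 6 rose and 3 fell without 0 h replicate 2, 5 rose and 5 fell without 8 h replicate 2. At 32 h, 7 rose and 6 fell without 0 h replicate 1.

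Of the 5 phosphatases that remove the phosphate from S1P and related lipids, all tested, 1 rose and 1 fell at 4 h (background 21.5% in either direction), and 2 rose and 1 fell at 8 h (34.4%) and at 32 h (40.8%). The cell-surface lipid phosphate phosphatase Ppap2a (now Plpp1) had 6242 and 6625 normalized reads at 32 h, against 10578 and 11383 at 0 h. It fell by 0.67 log2 at 4 h (adjusted p = 0.00142) and by 0.77 at 32 h (0.000146), in all 28 alternatives. Its paralog Ppap2b (now Plpp3) went the other way. It had 5030 and 5296 normalized reads at 8 h, against 2489 and 3645 at 0 h, a log2 change of 0.78 ± 0.132 (adjusted p = 0.000527), also in all alternatives. At 32 h Ppap2b was higher by 0.56 (adjusted p = 0.00362; 0.0513 without 0 h replicate 1). Sgpp1, the S1P phosphatase of the endoplasmic reticulum, had 3187 and 3160 normalized reads at 32 h, against 2419 and 2698 at 0 h (log2 change 0.31, adjusted p = 0.00847; 0.0931 without 0 h replicate 1).

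Of the 8 genes that turn ceramide into sphingomyelin, glucosylceramide or ceramide 1-phosphate, or sphingomyelin back into ceramide, 1 rose and 2 fell at 4 h (background 21.5%), and 1 rose and 3 fell at 32 h (40.8%). The riser at 32 h was Cerk, which makes ceramide 1-phosphate (log2 change 0.28, adjusted p = 0.0104; 0.0879 without 32 h replicate 1). Sgms1, the Golgi sphingomyelin synthase, had 3600 and 3418 normalized reads at 32 h, against 7765 and 8491 at 0 h, a 2.31-fold fall (log2 change -1.21 ± 0.071, adjusted p = 1.66e-08). At 8 h it had fallen by 0.80 log2 (adjusted p = 1.84e-06). Both Sgms1 results held in all alternatives. Sgms2, the synthase of the plasma membrane, had 651 and 653 normalized reads at 32 h, against 1161 and 1076 at 0 h (log2 change -0.78, adjusted p = 0.00150). Ugcg, the glucosylceramide synthase, rose at 4 h (log2 change 0.45, adjusted p = 0.000471) and was lower than at 0 h by 32 h (-0.69, adjusted p = 2.41e-06). These results on Ugcg and Sgms2 held in all alternatives.

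The upstream steps were mixed. Of 4 tested ceramide synthases, 1 fell at 8 h (background 34.4%), and 1 rose and 2 fell at 32 h (40.8%). Lass4 (now Cers4) had 573 and 571 normalized reads at 32 h, against 347 and 341 at 0 h (log2 change 0.73, adjusted p = 1.93e-05), and Lass6 (now Cers6) 1977 and 1963 against 3263 and 2896 (-0.64, adjusted p = 1.45e-05). The other fall at 32 h, that of Lass2 (now Cers2; log2 change -0.21, adjusted p = 0.0291), was lost in 5 of 28 alternatives, and equal totals gave 0.00 (adjusted p = 0.992). Of 3 tested ceramidases, which release sphingosine, 1 fell at 4 h (21.5%) and at 8 h, and 2 fell at 32 h. Asah2 fell at 4 h (log2 change -0.49, adjusted p = 0.0134) and at 8 h (-0.38, 0.0317), in 26 and 24 of 28 alternatives. Acer3 fell at 32 h (log2 change -0.32, adjusted p = 0.00977), in 24 of 28 alternatives, and equal totals gave -0.11 (0.320). The fall of Asah1 at 32 h (log2 change -0.18, adjusted p = 0.0338) was lost in 6 of 28 alternatives, and equal totals gave 0.03 (adjusted p = 0.690).

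Of 8 tested genes of sphingoid base synthesis and its control, 2 rose at 4 h (background 21.5%), 4 rose at 8 h (34.4%), and 2 rose and 3 fell at 32 h (40.8%). The genes that rose were mostly the Ormdl inhibitors of the enzyme that starts this route: Ormdl2 and Ormdl3 at 4 h, Ormdl1, Ormdl2 and Ormdl3 with the reductase Kdsr at 8 h, and Ormdl1 and Ormdl2 at 32 h. The 3 that fell at 32 h were enzymes of the route: Sptlc2, a subunit of serine palmitoyltransferase, and the desaturases Degs1 and Degs2. Ormdl1 had 320 and 359 normalized reads at 32 h, against 229 and 217 at 0 h (log2 change 0.60, adjusted p = 8.14e-05), and Degs1 had a log2 change of -0.42 (adjusted p = 1.57e-05). These results on Ormdl1 and Degs1 held in all 28 alternatives. The fall of Sptlc2 (adjusted p = 0.0199) was lost with equal totals (0.892), with quantile normalization (0.348) and without 0 h replicate 1 (0.122) or 32 h replicate 2 (0.122), and that of Degs2 (0.0383) was lost in 5 alternatives, with adjusted p-values of up to 0.226. The rises of Ormdl2 (adjusted p = 0.0327) and Ormdl3 (0.00541) at 4 h were lost in 4 alternatives and in 1, those of Ormdl3 (0.0391) and Kdsr (0.0205) at 8 h in 5 and 2, and that of Ormdl2 (0.00636) at 32 h in 1.

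**Figure D5:**
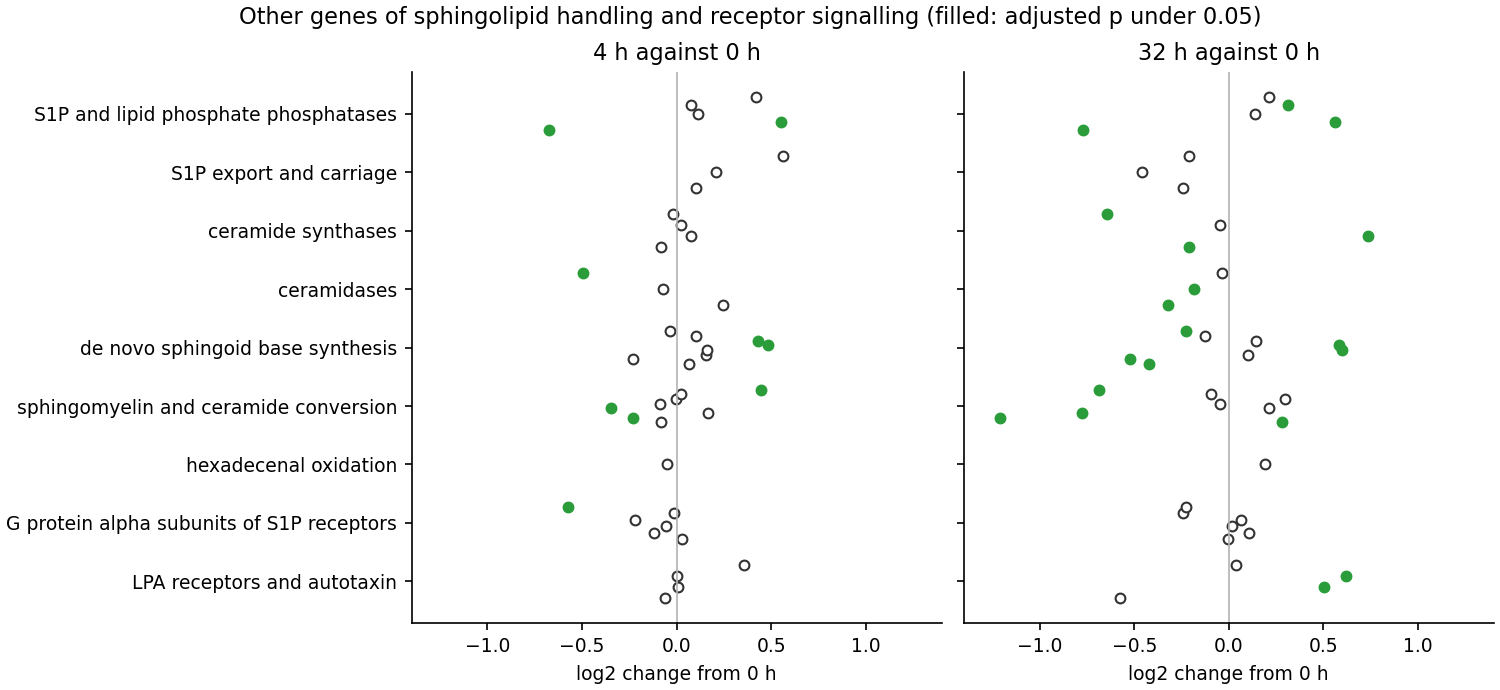
Log2 change at 4 h and at 32 h against 0 h of tested genes in lists of the S1P and sphingolipid pathway, grouped by list, with filled marks for an adjusted p under 0.05. At 32 h Sgms1 stands at -1.21, Ppap2a at -0.77 and Lass4 at 0.73.

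Few signalling genes beyond the receptors passed. Of 6 tested G protein alpha subunits that S1P receptors use, 1 fell at 4 h (background 21.5%), and 1 rose and 1 fell at 8 h (34.4%). The S1P exporter Spns2 had 8.05 to 33.5 normalized reads, with adjusted p-values of 0.347, 0.526 and 0.710 at 4 h, 8 h and 32 h against 0 h. Abcc1, also listed for S1P export, had 7956 to 12468 normalized reads. Its adjusted p-values at these times were 0.616, 0.530 and 0.160 (0.000493 at 32 h with the replicate block). Of 4 tested genes for receptors and synthesis of lysophosphatidic acid, a lipid mediator related to S1P, 2 rose at 8 h (34.4%) and at 32 h (40.8%). The receptor gene Lpar1 had 2939 and 3229 normalized reads at 32 h, against 1967 and 2407 at 0 h (log2 change 0.50, adjusted p = 0.000700), and Lpar2 341 and 311 against 199 and 227 (0.62, adjusted p = 0.000797). Both held in all 28 alternatives.

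The genes with the course most like each member were sought among 10952 other genes with a mean of at least 50, by Pearson r of log2 levels over the 18 libraries. These values describe libraries that share one time course. Closest to Sphk1 were Rnf19b (r = 0.996), Slc20a1 (0.990), Jun (0.989), Syde2 (0.988) and Dusp5 (0.988). Rnf19b had a mean of 2148 normalized reads at 32 h, against 7948 at 0 h, and Dusp5 566 against 4167, smaller changes than that of Sphk1 (265 against 4797). S1pr1 was most like Klf3 (r = 0.921), Rabgap1 (0.902) and Cbx8 (0.895), and Klf3 had means of 1223, 2028 and 1887 normalized reads at 0 h, 4 h and 32 h. Weaker likeness was found for Sgpl1 (Tap2, 0.870), S1pr3 (Tmed3, 0.884), Sphk2 (Notch1, 0.841) and S1pr2 (Spata2, 0.766). Among the members themselves, r was -0.755 for S1pr1 and Sgpl1 and 0.658 for Sphk2 and S1pr2, over the same 18 libraries.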

How the data were processed

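RNA of NIH3T3 cells at 9 times, 2 libraries each, was measured by single-end RNA-seq. The deposited table holds normalized signal values per gene and library, rounded to 2 decimals. Per the submitters' processing notes, TopHat, HTSeq, DESeq and mm9 were used; versions, roles and annotation are not given in the sources used here. Dividing each column by its smallest step gave whole reads within 0.02 reads for 100% of values, 25.4 to 38.9 M reads per library, and factors of 0.728 to 1.16. Those reads were used only for alternatives.

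Genes with a mean of at least 10 were fitted with limma 3.58.1 (R 4.3.3) on log2(value + 1), with a variance trend, time as a factor and all 18 libraries. Fold changes on this scale understate changes of low genes. P-values were 2-sided and adjusted by Benjamini-Hochberg over 12393 genes. The rhythm test was an F test of both harmonic terms of a 24 h wave. Intervals are 95% intervals of the fit, unadjusted.

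Alternatives were pseudocounts of 0.5 and 5, no filter or a mean of at least 50, equal library totals, quantile normalization, no variance trend, a replicate block, edgeR 4.0.16 or DESeq2 1.42.0 fitted to recovered reads, and leaving out each library, 28 in all, plus periods of 22 h and 26 h and a linear term for the rhythm. For a difference between times, leaving out a library of any other time left the log2 change as it was. It could alter only the spread and the p-values, so agreement under those alternatives says little. The fits were tested on simulated data. Replicate numbers pair the libraries: deviations from the time means correlated above 0.1 in 36 of 36 pairs of times (0.230 to 0.502). The labels do not say where the pairing comes from.

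The members, pathway lists and markers were chosen with earlier results of these data known. Named list genes were taken from the 3 largest changes past the threshold per list and time. Cerk, Degs1, Sptlc2, Abcc1 and, at 8 h, Ormdl3 were named after their values were seen. Spns2 was named without passing. Symbols are those of the table. Exon lengths are from GENCODE M21, and promoter windows from RefSeq (GRCm38.p6), with no window used for S1pr1.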

Additional observations from a re-analysis of the deposited data

How the results depend on the processing

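Of the 8 counts of members other than Sphk1 and 3 counts of pathway genes, 278 of 311 values under the alternatives stayed within 1.5 times the reported count, 19 were lower and 14 higher. Members past the threshold at 4 h numbered 1 to 3 with a library left out (3 reported), at 8 h 0 to 1 (0), at 32 h 1 (1), for 28 h against 4 h and 32 h against 8 h 0 to 1 (0), among the 9 times 0 to 2 (2), among 8 h to 32 h 0 (0) and for the rhythm 0 (0). Pathway genes past it numbered 3 to 10 at 4 h (9 reported), 9 to 17 at 8 h (16) and 13 to 20 at 32 h (20). With the replicate block, which follows the pairing of the libraries, 1 member passed at 8 h, 3 at 32 h, 1 for 28 h against 4 h, 1 for 32 h against 8 h, 4 among the 9 times and 2 among 8 h to 32 h. The block also raised the calls over all 12393 tested genes, to 5976, 6645, 6690, 5241, 8965 and 5100 in the same order. Without it they were 4263, 5059, 5126, 3422, 6439 and 2377. Apart from those member counts and the block values beside S1pr1, S1pr3 and Sgpl1, the block changed no other call of a member given above. Equal totals gave 2 members at 8 h, 3 at 32 h and 1 for 32 h against 8 h. Over all 12398 genes tested that way, 5158, 6861 and 3793 passed. DESeq2 gave 1 member at 8 h (3911 of 12393 genes), and quantile normalization 1 among the 9 times (6591 of 12393). The cause was not tested.

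Among the genes named, called changes reversed for Lass2 (0.00117) and Asah1 (0.0303) at 32 h against 0 h with equal totals. The reversals that follow were of members in comparisons where they had not passed. With equal totals, 32 h against 0 h became 0.0474 for S1pr3 and 0.0301 for Sgpl1, 28 h against 4 h became 0.0410 for Sphk2, 0.0469 for S1pr1 and 0.00648 for S1pr2, and 32 h against 8 h became 0.0493 for Sphk2. Leaving out 1 library gave -0.0918 to 0.167 for S1pr3 at 4 h against 0 h. For 28 h against 4 h it gave -0.309 to 0.0431 for S1pr1 and -0.0728 to 0.0871 for Sgpl1. For 32 h against 8 h it gave -0.0334 to 0.0680 for S1pr2, and quantile normalization gave -0.00811. The lowest value of any member in a library was 249 normalized reads. The 2 libraries per time limit the precision.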
